A study of Saccharomyces cerevisiae with 6 samples.

Results

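The transcripts described here are those of 10 budding yeast genes that build telomerase or cap the ends of chromosomes: EST1, EST2 and EST3, CDC13, STN1 and TEN1, RAP1, RIF1 and RIF2, and YKU70. They were taken by gene symbol from the array annotation, out of 5449 Saccharomyces cerevisiae genes with a named probe set, and each of the 10 had 1 probe set of its own. RNA came from 3 cultures of YRA1Δi cells and 3 cultures of WT cells, which were kept 4 hours in 2% galactose after growth in raffinose, and each culture gave 1 array. All cultures were the haploid strain W303-1A of mating type a, with the alleles ade2-1 and can1-100, trp1-1 and ura3-1, as well as the double alleles of his3 (his3-11 and his3-15) and leu2 (leu2-3 and leu2-112). In YRA1Δi cells a pRS413 plasmid carried the intron-less gene as GAL-YRA1Δi. WT cells also carried a GAL-driven plasmid, with the intron-containing gene (GAL-YRA1), so both groups held an additional copy of YRA1 that galactose switches on, although the labels describe WT as without overexpression. These plasmids are centromeric and marked with HIS3, and the chromosomal YRA1 gene was kept.

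Telomerase is the enzyme that adds telomeric repeats to chromosome ends from an RNA template. In yeast, Est2 is its reverse transcriptase, Est1 binds the telomerase RNA and brings the enzyme to Cdc13 on the single-stranded overhang, and Est3 is a small regulatory subunit. Cdc13, Stn1 and Ten1 form the CST complex, which caps the overhang and helps the second strand to be filled in. Rap1 coats the double-stranded repeats and recruits Rif1 and Rif2, which restrain telomerase, while the Ku heterodimer protects the ends and binds the telomerase RNA. Yra1 is an mRNA export adaptor whose intron keeps its own level down. The study asks what an excess of Yra1 does to the genome and to telomeres, and the comparison made here asks whether the mRNAs of these factors differed between YRA1Δi and WT cells.

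Values are log2 signals after RMA, which gives all arrays the same distribution of probe intensities and so largely hides any shift common to most transcripts. The values of the S. cerevisiae probe sets alone can still differ in distribution between arrays. Changes are YRA1Δi minus WT on the log2 scale. The YRA1 signal itself was 14.54 ± 0.08 in YRA1Δi cells and 13.34 ± 0.11 in WT cells (SD, n = 3 each), a 2.30-fold difference. Its adjusted p of 0.0102 in limma lay just above the 0.01 that the study states as its threshold. Across all arrays, the a-type genes MFA1, MFA2 and STE2 lay between 13.29 and 14.09, while the genes of the other mating type, MF(ALPHA)1, MF(ALPHA)2 and STE3, lay between 6.35 and 9.01. The replicate 2 arrays of both groups stood apart from the others, and the values of the members without them are given below where a result rests on them.

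None of the 10 genes had at least a 1.5-fold change with an adjusted p below 0.01, which are the thresholds stated in the study. Of the 5498 S. cerevisiae probe sets tested, 0% did so in limma. The study nonetheless listed STN1 as up-regulated, at the same 1.21-fold as found here, so its list also held changes below those thresholds. None of the members reached an adjusted p below 0.05 at any fold either, against 0.418% of all probe sets (0.4% with at least 1.5-fold). The changes ran from -0.22 for RIF2 to 0.48 for EST2, with a median of -0.02 over the 10 genes and 0.0091 over all probe sets tested. They were above 0 for 4 of 10 genes and for 52.4% of all probe sets. At an unadjusted p below 0.05, the members higher in YRA1Δi cells were EST2 and STN1, 2 of 10 genes, and 0 of 10 were lower, while 16.1% of all probe sets had such a p, 9.79% higher and 6.31% lower. The same 2 genes were the only members whose arrays did not overlap between groups, as was the case for 22.2% of all probe sets (13.6% higher and 8.57% lower in YRA1Δi cells). Both shares were thus near those of the rest of the array. Total RNA of a whole culture was measured, so a different share of cells in a stage of the cell cycle and a different amount of RNA per cell cannot be told apart.

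**Figure D1:**
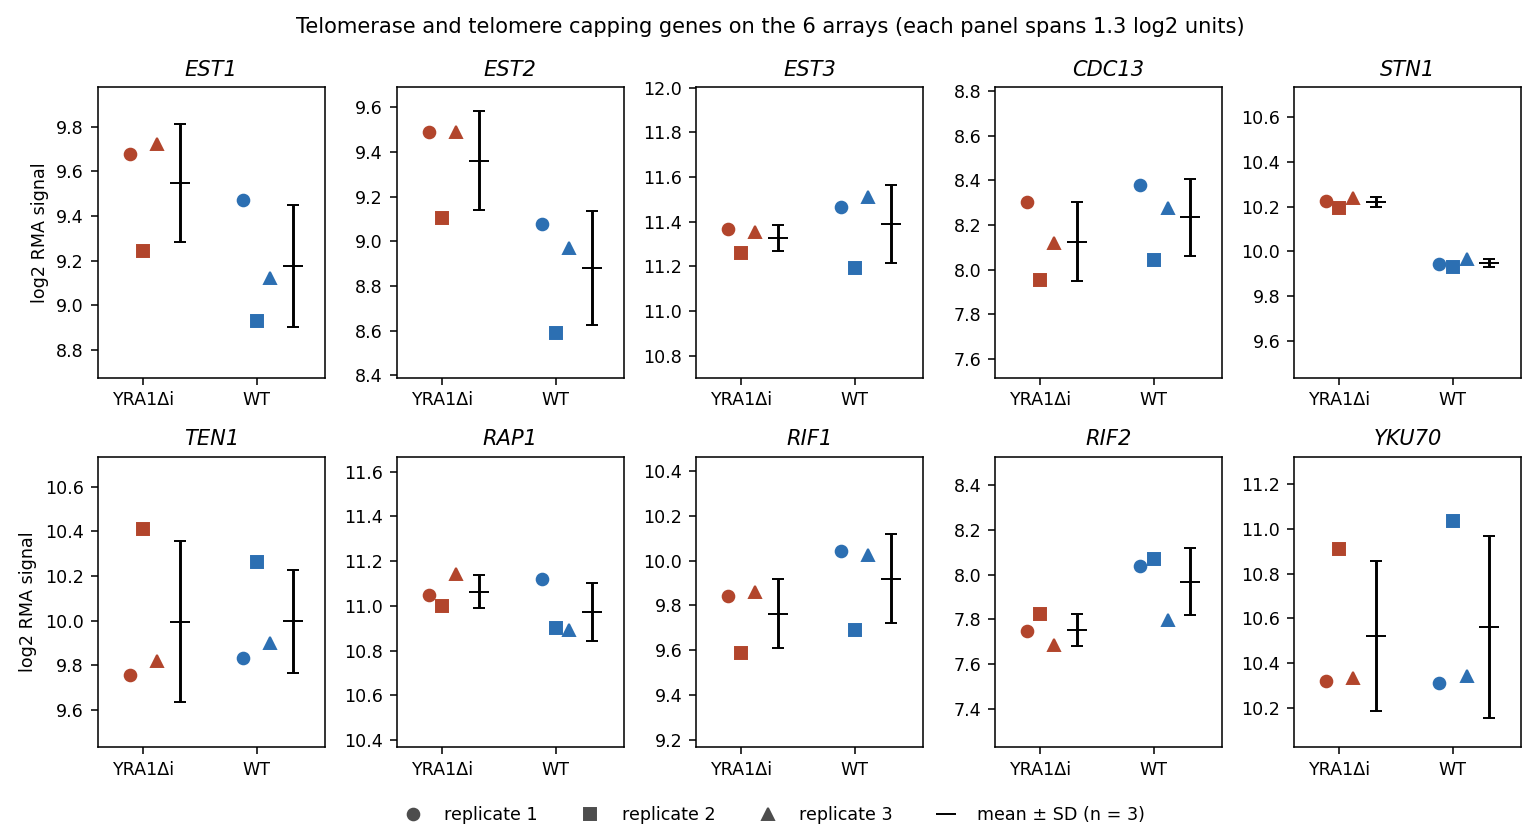
Log2 RMA signal (y axis) of each member on the 3 YRA1Δi arrays and the 3 WT arrays, with replicate number as the marker shape and bars for the mean ± SD. STN1 falls into separate groups at 10.20 to 10.24 in YRA1Δi cells and 9.93 to 9.97 in WT cells, whereas TEN1 and YKU70 differ more between replicate 2 and the other replicates than between groups.

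The catalytic subunit gene EST2 (YLR318W) had the largest change of the 10 members. Its signal was 9.49, 9.11 and 9.49 in YRA1Δi replicates 1, 2 and 3, and 9.08, 8.59 and 8.97 in WT replicates 1, 2 and 3. The lowest YRA1Δi array, replicate 2, lay just above the highest WT array, replicate 1. EST2 was thus 1.40-fold in YRA1Δi over WT cells, with a 95% confidence interval of 1.05 to 1.85 and an adjusted p of 0.247 in limma. With replicate number as a block the adjusted p was 0.0381, and EST2 was the only member below 0.05 in that fit, where 2.6% of all probe sets were. Without both replicate 2 arrays the change was 0.46 (limma adjusted p = 0.0215, 12.5% of all probe sets below 0.05), and with arrays weighted by their quality it was 0.48 (limma adjusted p = 0.0147, 17.8% of all probe sets below 0.05). Its unadjusted p of 0.0267 became 0.0800 and 0.0814 without YRA1Δi replicate 1 or YRA1Δi replicate 3, and 0.0612 without WT replicate 2.

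EST1 (YLR233C), which encodes the subunit that recruits telomerase to Cdc13, had signals of 9.68, 9.24 and 9.72 in YRA1Δi cells and 9.47, 8.93 and 9.12 in WT cells. The groups overlapped, because YRA1Δi replicate 2 lay below WT replicate 1. Its change of 0.37 (SE 0.18) had a limma adjusted p of 0.388, or 0.102 with the replicate block and 0.107 without both replicate 2 arrays. In the 3 replicate pairs EST1 differed by 0.21, 0.31 and 0.60, and EST2 by 0.41, 0.52 and 0.52.

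EST3 (YIL009C-A), whose mRNA needs a programmed ribosomal frameshift to give the full protein, had the lowest mean change of the telomerase subunits. It was 11.37, 11.26 and 11.35 in YRA1Δi cells and 11.47, 11.19 and 11.51 in WT cells, with the YRA1Δi arrays inside the range of the WT arrays. The change was -0.06 (95% confidence interval -0.31 to 0.18, limma adjusted p = 0.827). The log2 signal of EST2 minus that of EST3, whose size has no meaning between probe sets but which can be set between groups, averaged -1.97 over the YRA1Δi arrays and -2.51 over the WT arrays. The groups did not overlap in that difference, and an exact two-sided permutation test gave p = 0.10, the smallest that 3 arrays against 3 allow (0.333 after adjustment over the 10 within-complex differences computed, which were chosen after the values were seen).

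In the CST complex only STN1 had groups that did not overlap. STN1 (YDR082W), whose product bridges Cdc13 to the polymerase that fills in the second strand, had a signal of 10.23, 10.20 and 10.24 in YRA1Δi cells and 9.94, 9.93 and 9.97 in WT cells. All of the YRA1Δi arrays lay above all of the WT arrays. The change of 0.27 (SE 0.06) was 1.21-fold, with a 95% confidence interval of 1.10 to 1.33. STN1 had the lowest p of the members (unadjusted p = 0.00248, rank 134 among 5498 probe sets in limma) and an adjusted p of 0.101, which became 0.0726 with the replicate block and 0.0374 without both replicate 2 arrays. With array weights it was 0.00783 at a change of 0.28. Of all probe sets, 2.6% were below 0.05 with the block, 12.5% without both replicate 2 arrays and 17.8% with array weights.

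The replicates of STN1 were unusually close. Its SD within groups was 0.02, and only 1.11% of the tested probe sets had a lower one. Replicates 1, 2 and 3, each taken as a pair, differed by 0.28, 0.26 and 0.27. The adjusted p of limma rests on a variance that is drawn towards that of other probe sets, and the SE of 0.06 for STN1 is therefore wider than its own replicates would give.

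CDC13 (YDL220C), which encodes the protein that binds the single-stranded overhang, was 8.30, 7.95 and 8.12 in YRA1Δi cells and 8.38, 8.05 and 8.28 in WT cells. The groups overlapped over most of their range, and the change was -0.11 (95% confidence interval -0.42 to 0.20, limma adjusted p = 0.746). It was -0.25 when the S. cerevisiae probe sets alone were quantile normalised once more (limma adjusted p = 0.364), -0.023 without YRA1Δi replicate 2 and -0.20 without WT replicate 2. The log2 signal of STN1 minus that of CDC13 on the same array was 1.92, 2.24 and 2.12 in YRA1Δi cells and 1.56, 1.89 and 1.69 in WT cells. These differences did not overlap between groups, although the exact two-sided permutation p of 0.10 is again the smallest possible (0.333 adjusted over the 10 differences). STN1 minus TEN1 averaged 0.22 in YRA1Δi cells and -0.05 in WT cells with overlap (exact permutation p = 0.3, adjusted 0.429). Of the 10 differences, RIF2 minus RAP1 was the third without overlap, at -3.31 in YRA1Δi and -3.00 in WT cells (exact permutation p = 0.10, adjusted 0.333). The other 7 had an exact permutation p of 0.2 to 0.9. The share of gene pairs without overlap over the whole array was not computed, and for single probe sets it was 22.2%. EST2 and STN1 already did not overlap on their own, so the differences that hold them add no separate support.

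TEN1 (YLR010C), for the smallest CST subunit, followed replicate number and not group. It was 9.76, 10.41 and 9.82 in YRA1Δi cells and 9.83, 10.26 and 9.90 in WT cells, with the replicate 2 array the highest in both groups. The group means differed by -0.00091, and the 95% confidence interval of the change, -0.50 to 0.50, leaves room for a 1.41-fold difference in either direction.

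**Figure D2:**
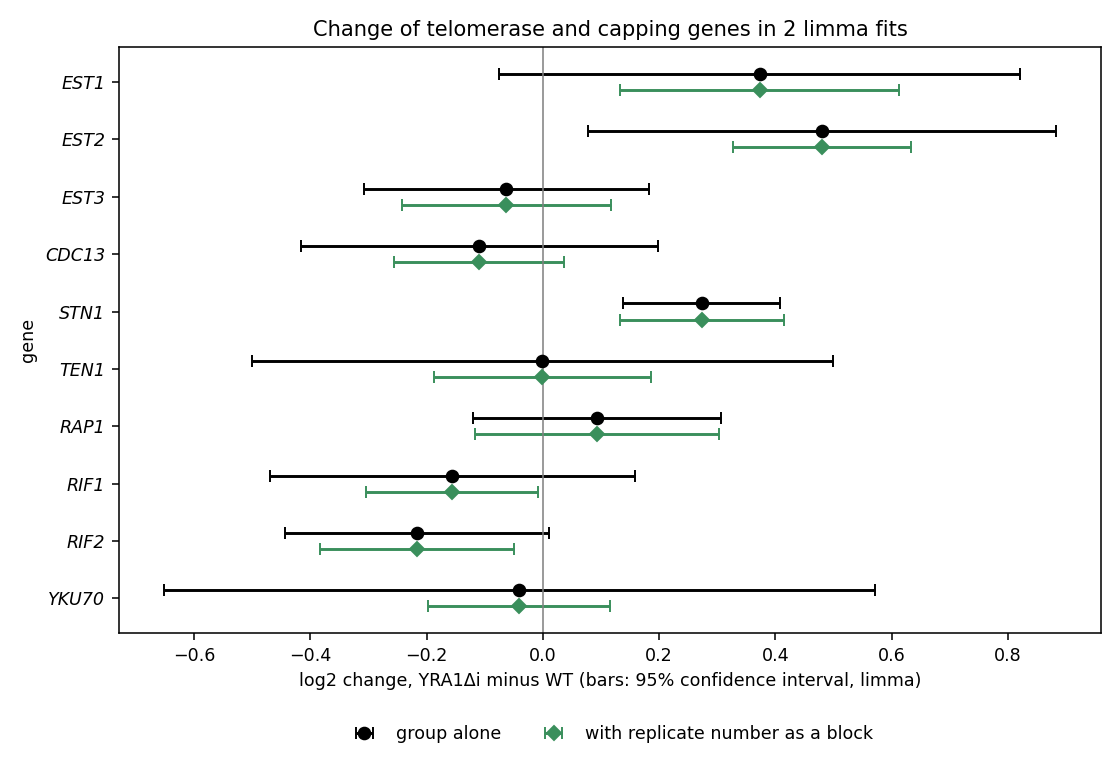
Log2 change, YRA1Δi minus WT (x axis), of each member (y axis) in limma, with bars for the 95% confidence interval in the fit on group alone (circles) and in the fit with replicate number as a block (diamonds). With group alone the intervals of EST2 (0.08 to 0.88) and STN1 (0.14 to 0.41) exclude 0, and with the block those of EST1, RIF1 and RIF2 do so as well.

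RAP1 (YNL216W) encodes an essential factor that also activates the genes of ribosomal proteins and glycolysis. Its signal was 11.05, 11.00 and 11.14 in YRA1Δi cells and 11.12, 10.90 and 10.89 in WT cells. WT replicate 1 lay among the YRA1Δi arrays, and the change of 0.09 (95% confidence interval -0.12 to 0.31) had a limma adjusted p of 0.696.

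The genes of both Rif proteins had lower means in YRA1Δi cells, without passing the test. RIF1 (YBR275C), whose product also controls the timing of replication origins, was 9.84, 9.59 and 9.86 in YRA1Δi cells and 10.04, 9.69 and 10.03 in WT cells. The groups overlapped only through WT replicate 2, and the change was -0.16 (limma adjusted p = 0.649, or 0.180 with the replicate block). It was -0.067 without YRA1Δi replicate 2 and -0.27 without WT replicate 2 (unadjusted p = 0.0495 in limma). RIF2 (YLR453C), for the Rap1 partner that limits the action of the Tel1 kinase at telomeres, was 7.75, 7.83 and 7.69 in YRA1Δi cells and 8.04, 8.07 and 7.80 in WT cells. Here WT replicate 3 lay below YRA1Δi replicate 2, and the change was -0.22 (limma adjusted p = 0.330, or 0.133 with the block). It was -0.43 after the same second quantile normalisation (limma adjusted p = 0.152). With array weights it was -0.27 with a limma adjusted p of 0.0438, where 17.8% of all probe sets were below 0.05. In the replicate pairs RIF1 differed by -0.20, -0.10 and -0.17 and RIF2 by -0.29, -0.24 and -0.11.

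YKU70 (YMR284W), for a subunit of the Ku heterodimer, was 10.32, 10.91 and 10.33 in YRA1Δi cells and 10.31, 11.03 and 10.34 in WT cells. As for TEN1, the replicate 2 array was the highest in both groups, and the change between groups was -0.04 (95% confidence interval -0.65 to 0.57, limma adjusted p = 0.959). Its partner gene YKU80, named here for comparison after its values were seen, differed by -0.01 (limma adjusted p = 0.975).

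When replicate number was taken into account, more members had a low p, as did more of the array as a whole. In the blocked fit, 5 of 10 members had an unadjusted p below 0.05, EST1, EST2 and STN1 higher and RIF1 and RIF2 lower in YRA1Δi cells, while 25.5% of all probe sets had such a p, 14.7% higher and 10.8% lower. Among those 5, EST2 alone had an adjusted p below 0.05. The same direction in all 3 replicate pairs was seen for 6 of 10 members, which were these 5 and CDC13, and for 50.6% of all probe sets.

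**Figure D3:**
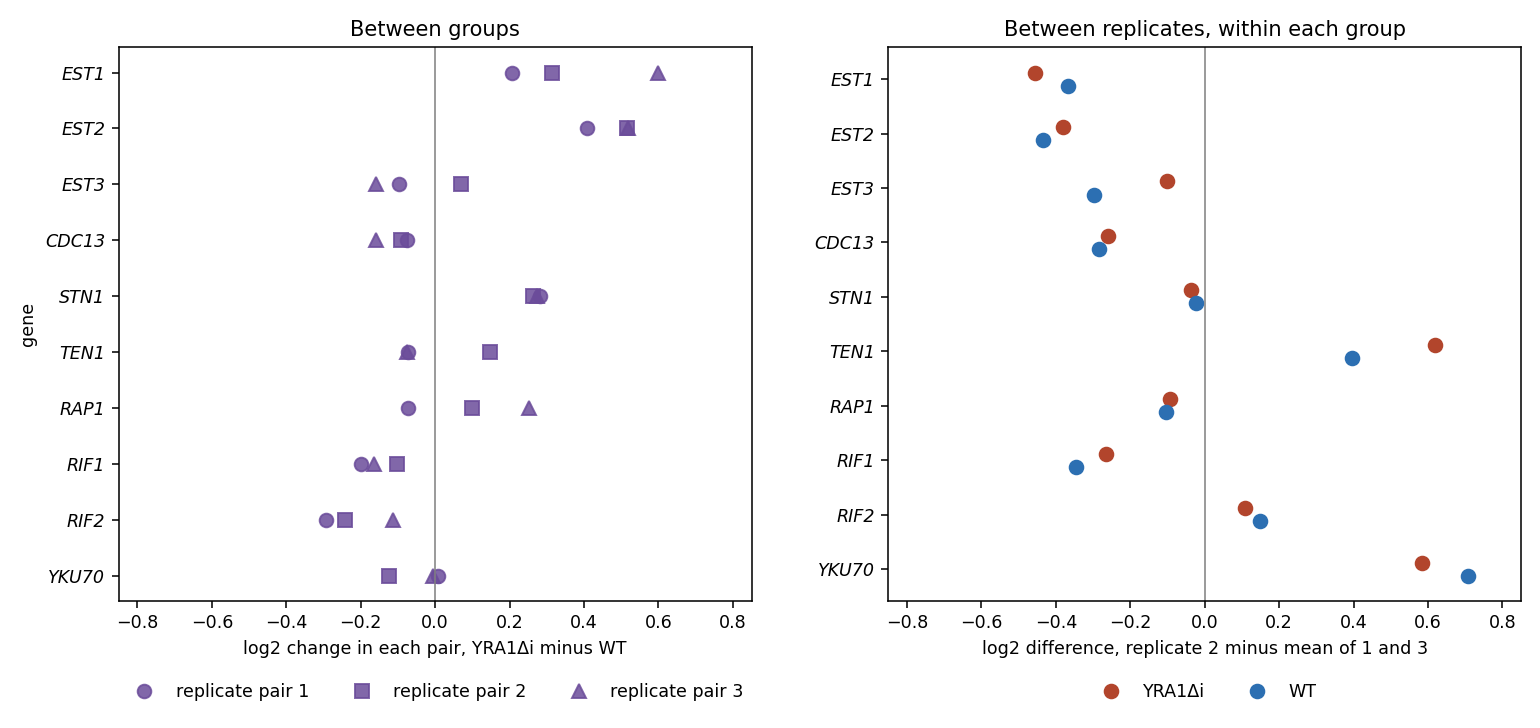
Left, log2 change of each member in the 3 replicate pairs, YRA1Δi minus WT. Right, log2 difference between the replicate 2 array and the mean of replicates 1 and 3, in YRA1Δi and in WT cells. EST2 and STN1 are above 0 in every pair, and YKU70 is higher on the replicate 2 array by 0.58 in YRA1Δi cells and 0.71 in WT cells.

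For EST3, CDC13, TEN1, RAP1, RIF1 and YKU70 the difference between replicate 2 and the other cultures was larger, in both groups, than that between group means, although for RAP1 only slightly (-0.094 in YRA1Δi and -0.10 in WT cells, beside a change of 0.093). YKU70 was higher on the replicate 2 array by 0.58 in YRA1Δi cells and 0.71 in WT cells, and TEN1 by 0.62 and 0.40. EST1 differed there by -0.45 in YRA1Δi and -0.37 in WT cells, EST2 by -0.38 and -0.43, RIF1 by -0.27 and -0.35, and CDC13 by -0.26 and -0.28. Each of these members thus lay on the same side of the other replicates in both groups. STN1 hardly moved, by -0.04 in YRA1Δi and -0.02 in WT cells. Over all 5449 genes the replicate 2 difference of the 2 groups correlated at 0.69 (Pearson's r across genes, which are not independent replicates and share the same arrays). Without both replicate 2 arrays, the change of TEN1 was -0.08 and that of YKU70 0.00096 (limma adjusted p = 0.428 and 0.992). RIF1 was then at -0.18, RIF2 at -0.20, EST3 at -0.13, CDC13 at -0.12 and RAP1 at 0.09 (limma adjusted p = 0.0857, 0.219, 0.178, 0.396 and 0.559), so that these 7 members stayed above 0.05. What set the replicate 2 cultures apart was not tested.

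Other genes that act at telomeres, and genes of mRNA decay and decapping, were then examined in 7 lists. Of their 49 genes, 41 were measured. The telomerase RNA TLC1 and the 7 YRF1 helicase genes of the Y' elements had no probe set under their symbol and were not analysed here. None of the 41 genes had an adjusted p below 0.05 in limma. At an unadjusted p below 0.05, 4 of 41 were higher in YRA1Δi cells and 0 lower, against 9.79% and 6.31% of all probe sets. DCP1 and NMD4 of the mRNA decay list were among these 4. The groups did not overlap for 8 genes higher and 2 lower in YRA1Δi cells, against 13.6% and 8.57% of all probe sets. TGS1, MRE11, PRI2 and KAE1, named below, were among them. The median change of the 41 genes was 0.03.

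The partners of the telomerase RNA included PIF1, a helicase that removes telomerase from chromosome ends. It was 10.80, 10.80 and 10.82 in YRA1Δi cells and 10.59, 10.60 and 10.48 in WT cells, with no overlap, a change of 0.25 and a limma adjusted p of 0.14. TGS1, whose product modifies the cap of the telomerase RNA, differed by -0.10 (limma adjusted p = 0.491). Of the telomere-bound kinases and nucleases, MRE11, of the complex that processes ends, differed by 0.13 and the kinase gene TEL1 by -0.16 (limma adjusted p = 0.45 and 0.50).

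In the list of silencing factors, SIR3 and SIR4, whose products spread from telomeres to silence nearby genes, differed by 0.18 and 0.13 (limma adjusted p = 0.426 and 0.507). Among the factors that replicate the ends, RFA1, the large subunit of the single-strand binding protein RPA, was 11.91, 12.00 and 11.99 in YRA1Δi cells and 11.84, 11.70 and 11.69 in WT cells. These values did not overlap, and the change of 0.22 had a limma adjusted p of 0.215. The primase subunit gene PRI2 differed by 0.15 (limma adjusted p = 0.348). In the KEOPS complex, which modifies tRNA and affects telomere capping, KAE1 differed by 0.11 and CGI121 by -0.17 (limma adjusted p = 0.529 and 0.681).

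**Figure D4:**
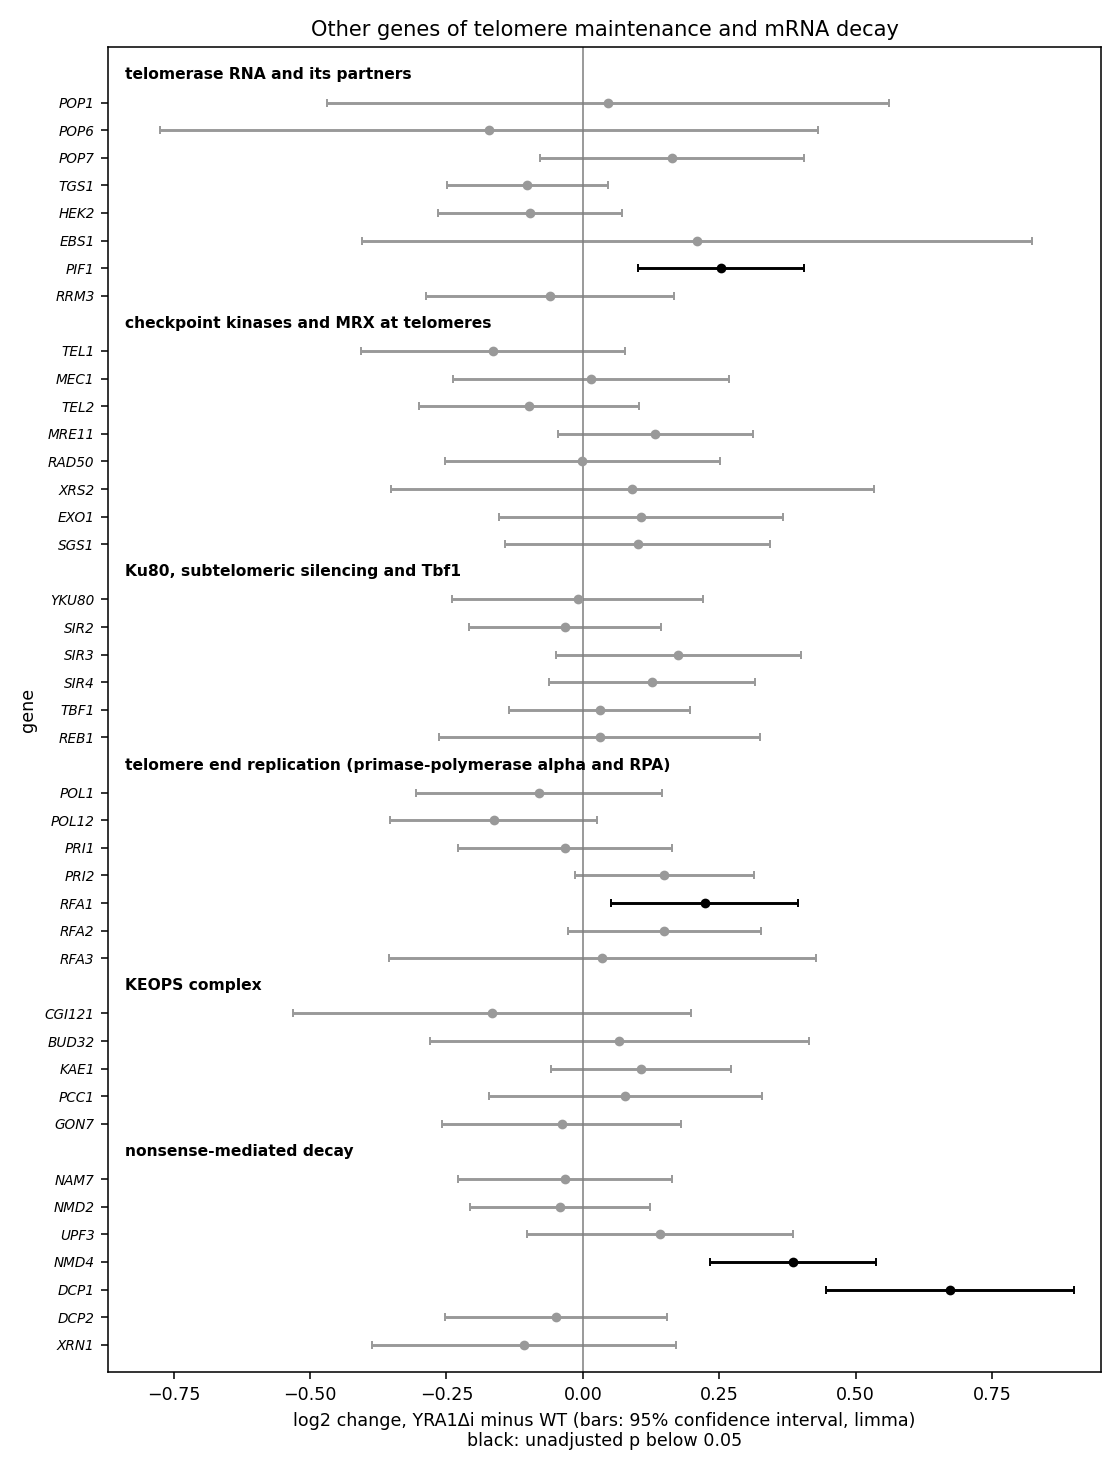
Log2 change, YRA1Δi minus WT (x axis), of the 41 measured genes of the other lists (y axis), with 95% confidence intervals from limma. Black marks an unadjusted p below 0.05, which was reached by PIF1, RFA1, NMD4 and DCP1, all of them higher in YRA1Δi cells, with DCP1 farthest from 0 at 0.67.

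Nonsense-mediated decay is known in yeast to keep the mRNAs of several telomere factors low, STN1 and TEN1 among them, so genes of this pathway and of decapping formed the last list. The core factor genes NAM7 (which encodes Upf1), NMD2 and UPF3 differed by -0.03, -0.04 and 0.14 (limma adjusted p = 0.882, 0.826 and 0.588). DCP1, which activates the decapping enzyme, was 12.25, 12.06 and 12.26 in YRA1Δi cells and 11.42, 11.66 and 11.47 in WT cells. It was 1.59-fold in YRA1Δi over WT cells without overlap, with a limma adjusted p of 0.0523, or 0.0491 with the replicate block. NMD4, an accessory factor of Upf1, was 10.28, 10.17 and 10.17 in YRA1Δi cells and 9.81, 9.80 and 9.85 in WT cells (change 0.39, limma adjusted p = 0.0733, or 0.0534 with the block). Like STN1, both DCP1 and NMD4 are in the study's list of up-regulated genes. That list was made from these same arrays, so it gives no separate support. Whether the differences of DCP1 and NMD4 bear on STN1 was not tested.

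STN1, as the member with the lowest p, was set against all other genes over the 6 arrays. Its profile was most like those of DPH5 (Pearson's r = 0.993), which acts in diphthamide synthesis, PCF11 (0.992), a subunit of the mRNA cleavage factor CF1A, and DBP5 (0.989), a helicase of mRNA export. Such values were not rare with 6 arrays, and 94 genes correlated with STN1 above 0.95. STN1 varied little within groups (SD 0.02), so a high correlation with it mainly reports a gene's own difference between YRA1Δi and WT cells. DPH5, PCF11 and DBP5 were themselves higher in YRA1Δi cells, by 0.21, 0.34 and 0.16. Whether these genes share anything beyond that difference was not tested.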

How the data were processed

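Per the labels and the methods, biotin-labelled RNA of 6 cultures was hybridised to Affymetrix Yeast Genome 2.0 arrays and normalised by RMA, and the authors deposited 1 table of log2 values for 10928 probe sets. The submitters' notes also name limma, and versions and a genome build were not given in the sources used here. Of 7245 annotated probe sets, 5498 matched 1 S. cerevisiae gene each (5449 genes) through the gene ID of the RefSeq R64 table, which kept S. pombe probe sets of the same name out. The 95th percentile of the 1747 other named probe sets, mostly S. pombe, was 4.70, and the lowest member value was 7.69. No filter was set.

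Groups come from the labels, which describe biological replicates. The model had group as its only term and was fitted by lmFit and eBayes (limma 3.58.1, R 4.3.3), two-sided, with Benjamini-Hochberg adjustment over all 5498 probe sets. It was tested on simulated data with independent errors on each array. Those data held no effect shared by replicates, so that test does not cover the replicate 2 difference seen here. The number of arrays limits the precision. Same-numbered arrays deviated together from their group means (r = 0.344, 0.695 and 0.301 for numbers 1, 2 and 3). Deviations cancel out within a group, so a shared deviation of replicate 2 alone makes numbers 1 and 3 correlate in any combination. The numbers of the labels were treated as pairs, but for 1 and 3 this rests on the labels alone. Values from the blocked fit are given where they move a call. YRA1Δi replicate 3 correlated better with WT replicate 1 (0.664) and YRA1Δi replicate 1 better with WT replicate 3 (0.582).

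The members and lists were chosen with earlier results of these data known. Named were all members, YRA1, the 2 genes with the lowest p of each list, and the 3 genes most like the member with the lowest p. The core decay factors and YKU80 were added after their values were seen. The alternatives were a replicate block, quantile normalization, equal medians, a filter on dim probe sets, all probe sets, array weights, robust eBayes, a variance trend with intensity, looser thresholds and leaving out arrays. No member had a second probe set to try.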

Additional observations from a re-analysis of the deposited data

How the results depend on the processing

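The number of members past the study's thresholds was 0 under all 17 alternatives, which included an adjusted p below 0.05 with or without a minimum fold in the fit on group alone. The number at an unadjusted p below 0.05, 2 as reported, was 5 with the replicate block, 4 with array weights and 4 without both replicate 2 arrays (added after the data were seen). After the second quantile normalisation it was 3, where RIF2 joined EST2 and STN1 (change -0.43, unadjusted p = 0.0088 in limma). With 1 array left out it ran from 1 to 3. It was 1 (STN1) without YRA1Δi replicate 1 or YRA1Δi replicate 3. The median change ran from -0.030 to 0.095 with 1 array left out, where it was 0.081 without YRA1Δi replicate 1 and 0.095 without WT replicate 2. Of 150 changes of single members under an alternative, 142 kept their direction. The 8 others were those of TEN1 and YKU70. TEN1 was at 0.00011 with arrays shifted to equal medians and ran from -0.21 to 0.13 with 1 array left out, and YKU70 was at 0.00096 without both replicate 2 arrays and ran from -0.23 to 0.20 with 1 array left out. With array weights, EST2, STN1 and RIF2 had an adjusted p of 0.0147, 0.00783 and 0.0438, where 17.8% of all probe sets were below 0.05. Over all alternatives the adjusted p ran from 0.0147 to 0.622 for EST2, from 0.00783 to 0.461 for STN1 and from 0.0604 to 0.787 for EST1. With 1 array left out the change ran from 0.25 to 0.52 for EST1, from 0.34 to 0.61 for EST2, from -0.16 to -0.0011 for EST3, from -0.20 to -0.023 for CDC13, from 0.052 to 0.17 for RAP1, from -0.27 to -0.067 for RIF1 and from -0.30 to -0.17 for RIF2. With the replicate block, the calls at an adjusted p below 0.05 gained among the members, the lists and the marker genes were those of EST2 and DCP1, given with the results, and of the mating type marker MF(ALPHA)1 (change -1.06, limma adjusted p = 0.0337 with the block and 0.312 on group alone). The causes of these differences were not tested.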
